A study of Mus musculus with 6 samples.

Results

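The transcription factor p53, encoded in the mouse by Trp53, and 9 genes it activates directly were examined in RNA-seq of cultured embryonic mouse cortical cells with or without knockdown of Ybx1, an RNA-binding protein that reads 5-methylcytosine in mRNA. The genes were Trp53, Cdkn1a, Mdm2, Ccng1, Bax, Trp53inp1, Phlda3, Sesn2, Zmat3 and Aen. They were chosen by name as p53 itself and well-established targets, because Cdkn1a was already known to be lower in these KD libraries, and all 10 of 10 were found among the 17920 genes listed. The question was whether other p53 targets were lower as well.

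There were 3 WT and 3 KD libraries, each taken from the E13.5 mouse cortex according to the sample titles. As the methods of the study describe, cortical cells of that stage were dissociated, cultured, infected with lentivirus, which integrates into the host genome, and exposed to puromycin, an antibiotic that kills uninfected cells. In KD the virus carried a short hairpin RNA directed against Ybx1, and the methods also list a control hairpin. They do not state what the WT cultures of these libraries received. If it was the control hairpin, infection and puromycin were shared by both groups. The series text speaks of a deletion of Ybx1, whereas the methods describe a knockdown for cultured cells. The methods name C57BL/6J mice for the making of a Ybx1 knockout line and tie no strain to these cultures, nor do they say which of the Ybx1 hairpins was used here. The libraries were of nearly equal depth, from 16294635 to 16497505 estimated counts. Y-linked transcripts set the pair numbered 2 apart, with summed counts of 14 in WT and 36 in KD against 1218 to 1899 in the others, so the counts of calls in each list of p53 genes are also given without that pair. Ybx1 itself fell from 629 ± 21 to 116 ± 36.8 CPM (counts on a scale of 1000000 per library, mean ± SD, n = 3), and KD replicates 1, 2 and 3 kept 15.6%, 14.7% and 25.3% of the WT mean.

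p53 is held at a low level in unstressed cells by Mdm2, a ubiquitin ligase that marks it for degradation and is itself a p53 target. When DNA is damaged or ribosome assembly fails, p53 accumulates, binds its response element and raises genes that stop the cell cycle, repair DNA, adjust metabolism or start apoptosis. In the developing cortex, activation of p53 in progenitors is known to lead to their arrest or death and to a smaller brain.

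The response element was taken here as a pair of directly adjoining elements of 10 bases, each with a C and a G at fixed places. Promoter windows of 300 bases (250 before and 50 after an annotated start) from RefSeq, build GRCm38.p6, were matched for 8 of the 10 genes, and no window was at hand for Trp53inp1 or Zmat3. The p53 consensus was searched with both C and G of each element required and up to 3 mismatches elsewhere, a limit set after the windows had been seen. Since the consensus reads the same on both strands, 1 search covers both. Matches were found for 4 of the 8 genes: Cdkn1a, Ccng1, Aen and Trp53. Of all 27025 genes with a window, 1.63% had a match, and 0.0814% had one with at most 1 mismatch. A match describes the letters only, and its absence says nothing of paired elements with bases between them or of sites elsewhere in a gene.

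The matches are shown because they lie beside genes whose RNA was measured here. Capitals mark the matched 20 bases, 5′ to 3′ on the strand of the gene. The Cdkn1a match, with 1 mismatch, begins 51 bases before the first of 2 annotated starts (plus strand, chr17:29090729-29090978). The Ccng1 match, with 1 mismatch, begins 195 bases before an annotated start (minus strand, chr11:40755287-40755536).
Cdkn1a: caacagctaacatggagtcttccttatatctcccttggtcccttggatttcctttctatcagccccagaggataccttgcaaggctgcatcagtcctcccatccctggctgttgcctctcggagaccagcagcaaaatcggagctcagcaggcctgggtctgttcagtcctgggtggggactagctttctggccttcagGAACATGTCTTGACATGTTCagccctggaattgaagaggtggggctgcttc
Ccng1: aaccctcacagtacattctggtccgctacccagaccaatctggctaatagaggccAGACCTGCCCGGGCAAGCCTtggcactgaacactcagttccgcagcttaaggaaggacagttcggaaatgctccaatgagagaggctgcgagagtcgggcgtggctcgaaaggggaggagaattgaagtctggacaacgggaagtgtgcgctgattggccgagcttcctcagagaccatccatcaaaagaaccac

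The matches of Aen (plus strand, chr7:78895932-78895961) and Trp53 (plus strand, chr11:69580279-69580308) had 3 mismatches each. That of Trp53 begins 75 bases before a start, and that of Aen 10 bases after one annotated start and 121 bases before another. Among 29 further p53 targets with a window, 5 had a match, and those of Bbc3 (3 mismatches, plus strand, chr7:16309481-16309510) and Rps27l (1 mismatch, plus strand, chr9:66946291-66946320) are shown because both genes fell in KD. Of the others, Sesn1 was higher in KD, and Gpx1 and Tigar did not pass the threshold given below. Among 20 regulators of p53 with a window, only Trp73 had a match (2 mismatches), and it did not pass either.
Aen: aagccGGGCTTGTCCGGGCAAGGAGcttcc
Trp53: cggaaGGACTTGCCCTTACTTGTTAtggcg
Bbc3: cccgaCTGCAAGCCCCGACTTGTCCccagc
Rps27l: atggcGGGCTTGTTGAGACTTGTCCgggcg

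Of the 10 genes, 5 fell in KD (Cdkn1a, Aen, Phlda3, Sesn2 and Ccng1), 0 rose and 5 did not pass the threshold (Zmat3, Bax, Trp53inp1, Trp53 and Mdm2). A gene passed at an adjusted p under 0.05 in edgeR's quasi-likelihood test over 13669 genes, and by that rule 11.9% of all genes were lower and 12% were higher. All 10 had enough counts to be tested. Because the list was drawn up around the known fall of Cdkn1a, that gene is no new evidence. The other genes and lists, too, were chosen with earlier results of these data known. Of the 8 other targets 4 fell and 0 rose (5 and 0 when replicate numbers were blocked). The 5 genes that fell were also those in which the highest KD library was lower than the lowest WT library, a pattern that held for 20.6% of all genes tested. The median log2 fold change of the 10 genes was -0.31, as was that of the 8 other targets, beside 0.00 over all genes tested. In bulk RNA, fewer cells of a type and less RNA per cell cannot be told apart.

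**Figure D1:**
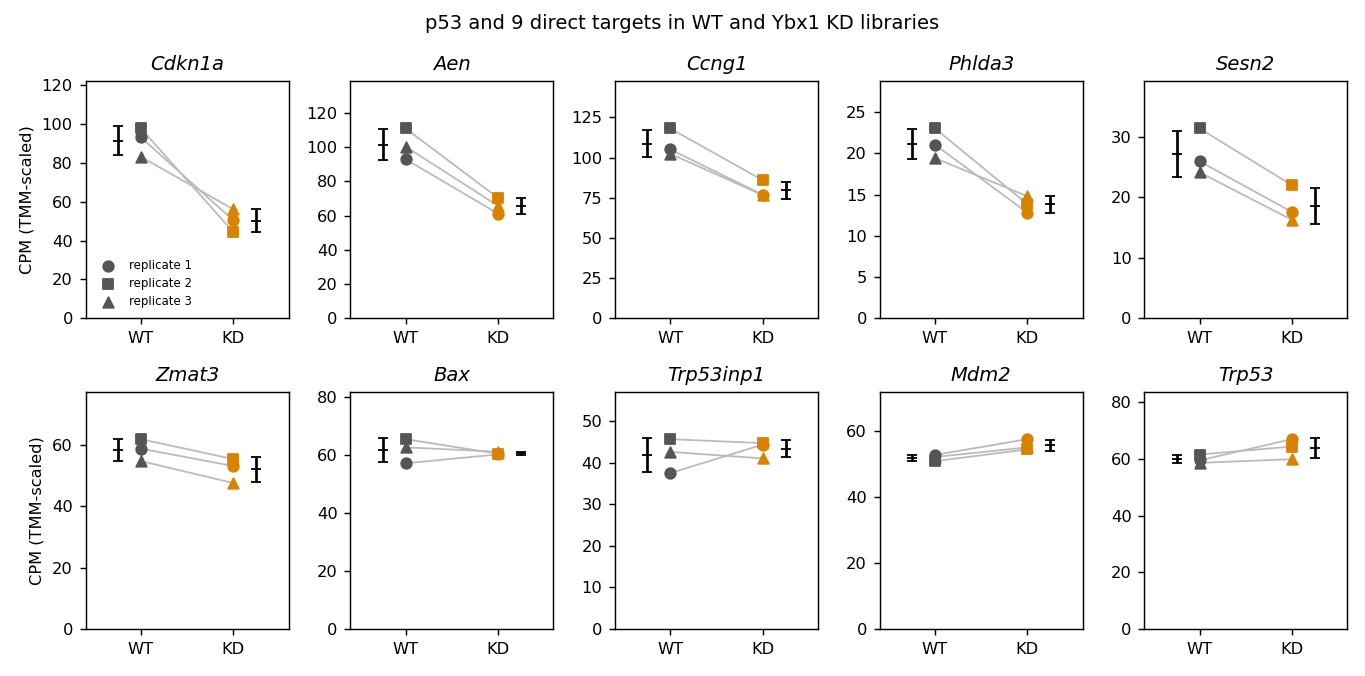
Levels of the 10 genes in CPM (vertical axes, from 0) in each WT (grey) and KD (orange) library, with lines joining libraries of the same replicate number and bars for mean ± SD (n = 3). In the upper row, Cdkn1a, Aen, Ccng1, Phlda3 and Sesn2 are lower in every KD library than in every WT library, whereas Zmat3, Bax, Trp53inp1 and Trp53 overlap and Mdm2 lies slightly higher in KD.

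Cdkn1a encodes p21, which inhibits cyclin-CDK complexes and is the main effector of p53-dependent arrest. It stood at 93.2, 97.8 and 83.3 CPM in WT replicates 1, 2 and 3 and at 50.4, 44.4 and 56.1 CPM in KD replicates 1, 2 and 3. KD kept 55.0% of the WT mean, with a log2 fold change of -0.86 (SE 0.09, 95% interval -1.07 to -0.65, adjusted p = 6.9e-04). This placed it in the lowest 0.988% of log2 fold changes of all genes tested. Between same-numbered libraries the differences were -0.89, -1.14 and -0.57 on the log2 scale, so the fall was smallest in pair 3, whose KD library also kept the most Ybx1. With 3 pairs, this relation was not tested.

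Aen, which encodes an exonuclease that promotes apoptosis, followed most closely in size and was more even between pairs. Its WT libraries held 92.9, 111 and 100.3 CPM and its KD libraries 61.1, 70.3 and 65.7 CPM. The groups did not overlap, and KD kept 64.8% of the WT mean (log2 fold change -0.62, SE 0.08, adjusted p = 0.0012). The pairs differed by -0.60, -0.66 and -0.61, and in pair 3 the fall of Aen was slightly deeper than that of Cdkn1a.

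Phlda3 encodes a small protein that keeps the kinase Akt from membranes. It was measured at 21.1, 23.0 and 19.4 CPM in WT and 12.8, 13.9 and 14.8 CPM in KD. Every KD library was lower, at 65.3% of the WT mean (log2 fold change -0.62, SE 0.10, adjusted p = 0.00341). As with Cdkn1a, the smallest difference was in pair 3, at -0.39, against -0.72 and -0.73 in pairs 1 and 2.

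Sesn2, a stress-induced sestrin that restrains mTORC1, had 25.9, 31.3 and 24.1 CPM in WT and 17.6, 22.0 and 16.2 CPM in KD. Replicate 2 was the highest library in both groups, and the highest KD library stayed just below the lowest WT library. The log2 fold change was -0.55 (SE 0.13, adjusted p = 0.0195), and the pairs differed by -0.56, -0.51 and -0.57. The call was lost without WT replicate 2 (adjusted p = 0.0759), KD replicate 1 (0.056) or KD replicate 3 (0.057), where the log2 fold change lay between -0.51 and -0.43. Its adjusted p spanned 4.8e-05 to 0.0759 under the 16 alternatives.

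Ccng1 encodes cyclin G1, which takes part in feedback on Mdm2 and p53. Its values were 105.1, 118.1 and 102.4 CPM in WT and 76.8, 85.9 and 76.6 CPM in KD. This was the smallest of the 5 falls, with 73.5% of the WT mean kept (log2 fold change -0.44, SE 0.07, adjusted p = 0.00362), and the most even, with pairs at -0.45, -0.46 and -0.42. Its 95% interval, -0.61 to -0.28, did not overlap that of Cdkn1a but overlapped those of Aen, Phlda3 and Sesn2. The differences between genes were not tested.

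Zmat3, a zinc finger RNA-binding protein, stood between the genes that fell and the rest. It was at 58.9, 62.0 and 54.8 CPM in WT and 53.2, 55.5 and 47.6 CPM in KD. The groups overlapped, since KD replicate 2 lay above WT replicate 3, although each KD library was below its own pair by 0.15, 0.16 and 0.20 on the log2 scale. The log2 fold change of -0.17 (95% interval -0.33 to -0.00) had an adjusted p of 0.126 in edgeR, and 0.0295 with the replicate number as a block. With the block 6 of the 10 genes were therefore lower and 0 higher. Of the 8 targets other than Cdkn1a, 5 were lower and 0 higher, where 18.1% and 18.6% of all genes were.

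**Figure D2:**
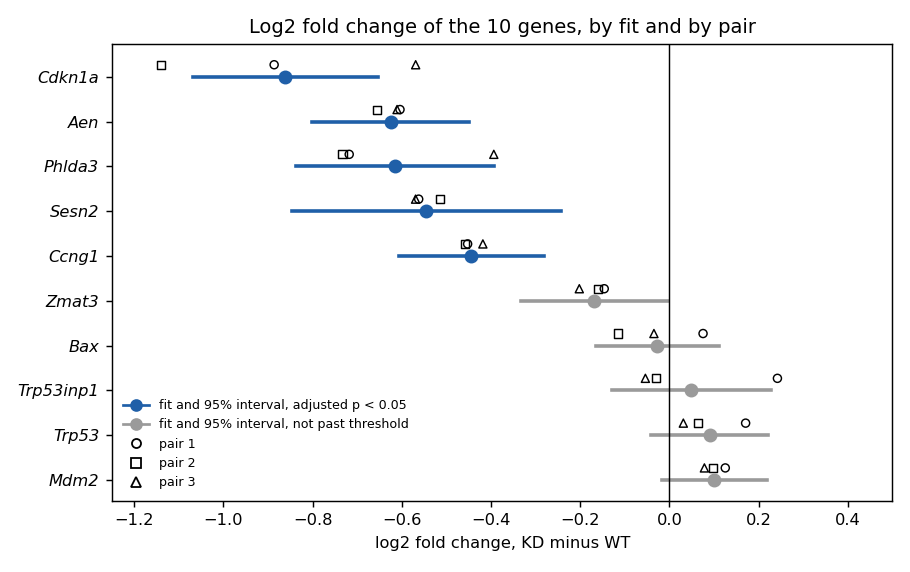
Log2 fold change, KD minus WT (horizontal axis), of the 10 genes by the fit over 3 WT and 3 KD libraries (filled points, with bars for the 95% interval) and in each same-numbered pair (open symbols). The 5 blue genes, from Ccng1 at -0.44 to Cdkn1a at -0.86, passed the threshold and the 5 grey ones, from Zmat3 at -0.17 to Mdm2 at 0.10, did not.

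Bax, the pore-forming protein of mitochondrial apoptosis, showed no fall. Its counts gave 57.1, 65.4 and 62.5 CPM in WT and 60.1, 60.3 and 61.0 CPM in KD. The KD values lay within the range of the WT values (log2 fold change -0.03, 95% interval -0.16 to 0.11, adjusted p = 0.781), and the interval leaves out a fall as large as the estimate for Ccng1.

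Trp53inp1, which encodes a nuclear protein that promotes p53 phosphorylation, likewise overlapped. The values were 37.5, 45.7 and 42.6 CPM in WT and 44.4, 44.7 and 41.0 CPM in KD (log2 fold change 0.05, 95% interval -0.13 to 0.23, adjusted p = 0.687). The lowest library was WT replicate 1, and without it the log2 fold change was -0.02.

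Trp53 and its negative regulator Mdm2 were not lower. Trp53 was at 59.5, 61.6 and 58.7 CPM in WT and 67.0, 64.4 and 60.0 CPM in KD (log2 fold change 0.09, 95% interval -0.04 to 0.22, adjusted p = 0.29). Mdm2 was at 52.8, 50.9 and 52.1 CPM in WT and 57.5, 54.4 and 55.0 CPM in KD (log2 fold change 0.10, 95% interval -0.02 to 0.22, adjusted p = 0.191). All KD libraries of Mdm2 lay above all WT libraries, as for 21% of all genes, yet the difference did not pass. The Trp53 groups overlapped. Both are measures of RNA, and neither p53 protein nor its degradation was measured in these libraries.

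Levels per transcript length were compared between genes with the deposited TPM values (an abundance scaled for length, summing to 1000000 in each library). In WT the order was Bax (213 ± 14.3 TPM), Cdkn1a (112 ± 7.69), Trp53 (78.5 ± 1.01), Ccng1 (67.5 ± 4.41), Aen (43.7 ± 3.59), Phlda3 (35.8 ± 2.58), Mdm2 (35.3 ± 0.887), Sesn2 (22.8 ± 2.89), Trp53inp1 (16.3 ± 1.56) and Zmat3 (15.5 ± 0.726). Neighbours in this order overlapped between libraries only for Phlda3 with Mdm2 and for Trp53inp1 with Zmat3. In KD, Cdkn1a was at 64.0 ± 6.53 TPM, below Trp53 at 87.3 ± 6.11 TPM, and Aen (29.4 ± 2.15) and Phlda3 (24.3 ± 1.49) were below Mdm2 (39.2 ± 1.3). Bax was the most abundant of the 10 in both groups.

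The genes lie on 7 chromosomes in GRCm38.p6. Cdkn1a is on chromosome 17 (29090979 to 29100722), Aen on chromosome 7 (78895927 to 78911209), Ccng1 on chromosome 11 (40748552 to 40755309), Phlda3 on chromosome 1 (135766085 to 135769134) and Sesn2 on chromosome 4 (132492804 to 132510456). The GENCODE vM21 exons of Cdkn1a share 273 bases, 7.7% of their length, with an antisense gene, AC167363.2. Those of Bax share 192 bases with Gm45808 on the same strand. Whether strand was used in counting is not given in the sources used here, and neither of these other genes is listed in the table. Estimated counts were whole numbers (within 0.005) in every library for all of the 10 genes except Mdm2, which was fractional in 2 libraries. Fractions in a count per gene can arise where reads match more than 1 gene.

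To see how far the pattern extended, 36 further direct p53 targets were sorted by function, of which 35 could be tested (not Gdf15). Of these, 8 fell, 5 rose and 22 did not pass, that is, 22.9% lower and 14.3% higher beside the 11.9% and 12% of all genes. Their median log2 fold change was -0.12. With the replicate block 12 fell, now with Plk3, Tnfrsf10b, Polk and Cd82, and 6 rose, now with Ddit4, where 18.1% of all genes fell and 18.6% rose. These counts hung on single libraries: 4 fell without WT replicate 2, 1 rose without KD replicate 2 and 2 rose when WT replicate 1 or KD replicate 3 was left out, and leaving out WT replicate 2 or KD replicate 1 left 3 that rose. Without both libraries numbered 2, 1 fell and 0 rose, counted over the functional groups together. The calls named by function below are those with all libraries. Calls over all genes dropped as well in these fits, from 1631 lower and 1646 higher with all libraries. Without WT replicate 2, 797 genes were lower and 779 higher, and without KD replicate 2, 849 and 884. Higher calls numbered 1151 without WT replicate 1, 1298 without KD replicate 3 and 1098 without KD replicate 1. Without both libraries numbered 2, 93 genes were lower and 135 higher.

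Among 9 apoptosis genes, 3 were lower and 0 higher, that is, 33.3% and 0% beside 11.9% and 12% of all genes. Bbc3 encodes Puma, an activator of Bax, and it fell from 34.6 ± 3.08 to 20.5 ± 1.42 CPM (log2 fold change -0.75, SE 0.09, adjusted p = 9.0e-04), with pairs at -0.73, -0.78 and -0.73. Eda2r, a receptor of the TNF receptor family, fell from 6.57 ± 0.484 to 4.12 ± 0.548 CPM (-0.67, adjusted p = 0.0126), and Ei24, an endoplasmic reticulum protein, from 143.5 ± 1.54 to 111.1 ± 2.57 CPM (-0.37, adjusted p = 0.0011). Pmaip1 (Noxa), Fas, Perp, Apaf1, Pidd1 and Tnfrsf10b did not pass, with log2 fold changes between -0.57 and 0.08, and Fas was counted at under 1 CPM.

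Among the further targets with other roles, 3 of 7 fell and 1 rose. These shares of 42.9% and 14.3% stand beside 11.9% and 12% of all genes. Ephx1, the microsomal epoxide hydrolase, had the lowest log2 fold change of all p53 targets examined, falling from 19.5 ± 3.19 to 10.2 ± 1.92 CPM (-0.93, SE 0.16, adjusted p = 0.00505). Ak1, an adenylate kinase, was also lower (-0.37, adjusted p = 0.00758), as was Rps27l, a ribosomal protein S27-like gene (-0.43, adjusted p = 0.0338). Fbxw7, which selects proteins such as cyclin E for degradation, rose (0.36, adjusted p = 0.0363), with fractional counts in each of the 6 libraries.

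In the other functional groups few genes passed. The shares lower were 16.7% of DNA repair, 12.5% of metabolic and 0% of arrest genes, and those higher 16.7%, 25% and 20%. Over all genes they were 11.9% and 12%. Differences between the functional groups were not tested. Of 6 DNA repair genes, Rrm2b, a subunit of ribonucleotide reductase, fell (-0.27, adjusted p = 0.0414), whereas Pcna, the sliding clamp of replication, rose from 85.7 ± 3.99 to 115.3 ± 8.10 CPM (0.43, adjusted p = 0.0026). Of 8 metabolic genes, Sco2, needed to assemble cytochrome c oxidase, fell (-0.57, adjusted p = 0.0142, fractional counts in all libraries), while Sesn1, a paralog of Sesn2, rose (0.25, adjusted p = 0.0355) together with Prkab1, a subunit of AMP-activated kinase (0.25, adjusted p = 0.0148). Of 5 arrest genes, Btg2, an anti-proliferative gene, rose (0.31, adjusted p = 0.0473), and Gadd45a, Plk2, Plk3 and Sfn did not pass.

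**Figure D3:**
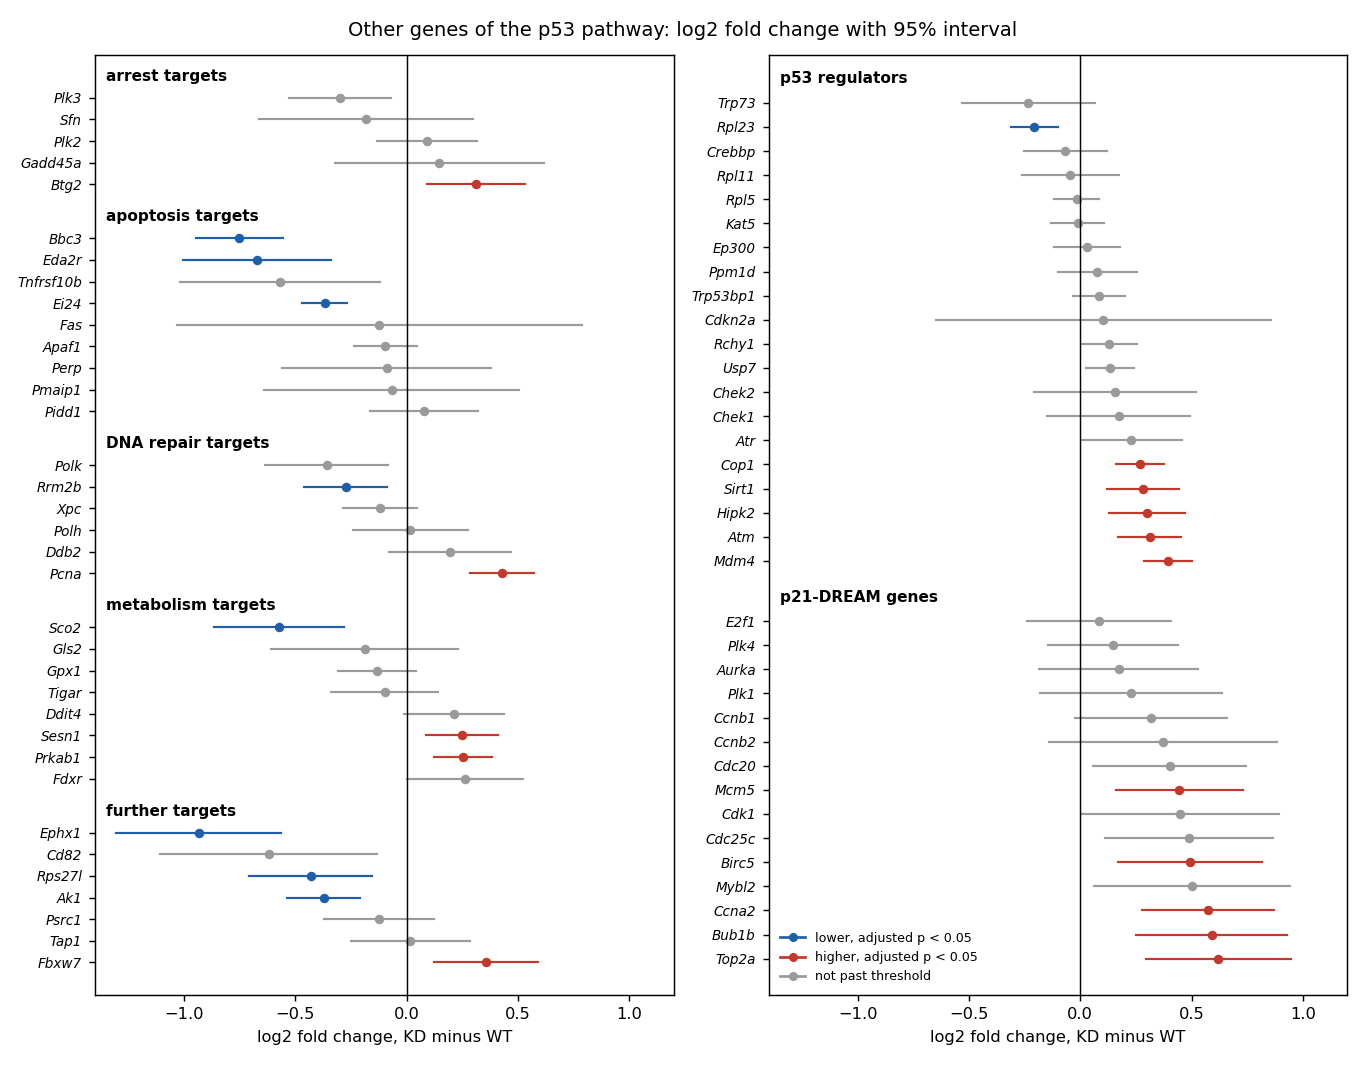
Log2 fold change, KD minus WT (horizontal axes), with 95% intervals for 35 further p53 targets by function (left) and for 20 regulators of p53 and 15 genes lowered through p21 and DREAM (right). Blue and red mark genes lower and higher past the threshold. The lowest targets are Ephx1 at -0.93 and Bbc3 at -0.75, and all 15 genes of the p21-DREAM group lie above 0.

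Regulators that act on p53 were next. Of 20 tested (not Trp63), 5 rose and 1 fell, that is, 25% higher beside 12% of all genes and 5% lower beside 11.9%. Mdm4, which binds and silences p53, rose from 110 ± 3.40 to 144.5 ± 3.35 CPM (log2 fold change 0.39, SE 0.05, adjusted p = 0.00107), with pairs at 0.39, 0.42 and 0.38. The ubiquitin ligase gene Cop1 was higher by 0.27 (adjusted p = 0.00533) and the deacetylase gene Sirt1 by 0.28 (adjusted p = 0.0217), and both proteins lower p53 activity. The kinase genes Atm (0.31, adjusted p = 0.00894) and Hipk2 (0.30, adjusted p = 0.0222), whose products activate p53, rose as well, and the counts of Hipk2 were fractional in all libraries. Of the ribosomal protein genes whose products bind Mdm2, Rpl23 fell (-0.21, adjusted p = 0.0148, fractional counts) and Rpl5 and Rpl11 did not pass (-0.02 and -0.04). With the block, Usp7 and Atr were added to the genes that rose, which made 7 of 20 where 18.6% of all genes rose. The number that rose was 3 without WT replicate 1, WT replicate 2, KD replicate 1 or KD replicate 2. Over all genes, 1151, 779, 1098 and 884 rose in those fits, against 1646 with all libraries. Rpl23 lost its call without WT replicate 2 or KD replicate 2. Without both libraries numbered 2 the counts were 0 higher and 0 lower, beside 135 and 93 of all genes.

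p21 acts on transcription indirectly, since it keeps CDKs from releasing the Rb family and the DREAM complex, which silence cell cycle genes. Of 15 such genes, 5 rose, 0 fell and all 15 had a log2 fold change above 0, with a median of 0.45. Over all 13669 genes tested, 6873 lay below 0. Whether the fall of Cdkn1a had a part in these rises was not tested. The 33.3% that rose stand beside 12% of all genes. The 5 were Top2a (0.62, adjusted p = 0.0158), Bub1b (0.59, 0.0223), Ccna2 (0.57, 0.015), Birc5 (0.49, 0.0367) and Mcm5 (0.45, 0.0331), each with the adjusted p from edgeR second, and 11 of the 15 rose with the block, where 18.6% of all genes did. Counts of Ccna2 were fractional in all libraries.

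KD replicate 1 was the highest KD library for all 15 genes, and WT replicate 1 was the highest WT library for all of them but Cdc20. Top2a was at 92.8, 84.4 and 74.1 CPM in WT and at 161.4, 117.1 and 107.9 CPM in KD, and Mcm5 at 38.8 CPM in KD replicate 1 against 28.2 and 28.5 CPM in the others. E2f1 lay above 0 through that library alone, with pairs at 0.37, -0.11 and -0.08. Without KD replicate 1, 2 of the 15 rose. Leaving out WT replicate 2 gave a count of 1, and leaving out WT replicate 3 or KD replicate 2 gave 3. The count was 0 once the pair numbered 2 was removed. Higher calls over all genes shrank too, from 1646 with every library. They were 779 after dropping WT replicate 2, 884 after KD replicate 2 and 1098 after KD replicate 1. Dropping WT replicate 3 left 1612 of them, and dropping the pair numbered 2 left 135. Summed markers of cortical progenitors (6 genes) were higher in every KD library as well (3308 to 3591 TPM against 2913 to 3214 TPM in WT). Most of that sum was Fabp7, at 2368 to 2705 TPM in WT and 2728 to 2842 TPM in KD. Sox2, Nes, Hes5 and Vim overlapped between the groups, and only Pax6 passed. The part of progenitors in these rises was not tested.

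Genes whose level across the 6 libraries was most like that of Cdkn1a were sought among 11429 genes with a mean of at least 5 CPM. The 5 with the highest Pearson r of log2 CPM were Cx3cl1, Aldh1b1, Scd1, Lrrc3 and Mindy2, with r between 0.998 and 0.999 over 6 libraries. This r is dominated by the step between the groups, and none of the 5 is in the p53 lists. Among the 10 genes, r with Cdkn1a was 0.97 for Phlda3, 0.91 for Aen, 0.89 for Ccng1 and 0.78 for Sesn2. It was 0.64 for Zmat3, 0.23 for Bax, -0.33 for Trp53inp1, -0.68 for Trp53 and -0.83 for Mdm2. Once the group means were removed it was 0.64 for Phlda3 and between -0.26 and -0.10 for Aen, Ccng1 and Sesn2. For the genes that did not pass it then lay between -0.26 and 0.12.

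Markers of cell types were read in TPM as a check of the samples. Of the 6 progenitor markers whose sum was given above, Pax6 was higher past the threshold. Cortical neuron lineage markers (7 genes, summed) lay between 2068 and 2625 TPM in WT and 2266 and 2743 TPM in KD, with 2 higher (Eomes and Dcx). The oligodendrocyte lineage sum (4 genes) was 302.6 to 408.3 TPM in WT and 260 to 328 TPM in KD, with Olig1 lower, and the interneuron sum (6 genes) 457.8 to 676.5 and 492.9 to 758.4 TPM, with Dlx2 higher. The astrocyte sum (3 genes) was 50.8 to 59.0 TPM in WT and 49.6 to 60.8 TPM in KD. Microglia, endothelial, mural and meningeal, and erythroid markers each summed to at most 15.4 TPM in any library, Cldn5 was at 0 in all but 1 library, and Pdgfrb was the only gene of these lists to pass, higher in KD. The part of these differences in the values of the p53 targets was not tested.

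Without both libraries numbered 2, 3 of the 10 genes still passed, with 0 higher: Aen, Ccng1 and Cdkn1a, the last of which is no new evidence. By the same rule 0.678% of all genes were lower. The log2 fold changes of Phlda3 and Sesn2 were then -0.55 (adjusted p = 0.0796) and -0.57 (adjusted p = 0.0571).

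**Figure D4:**
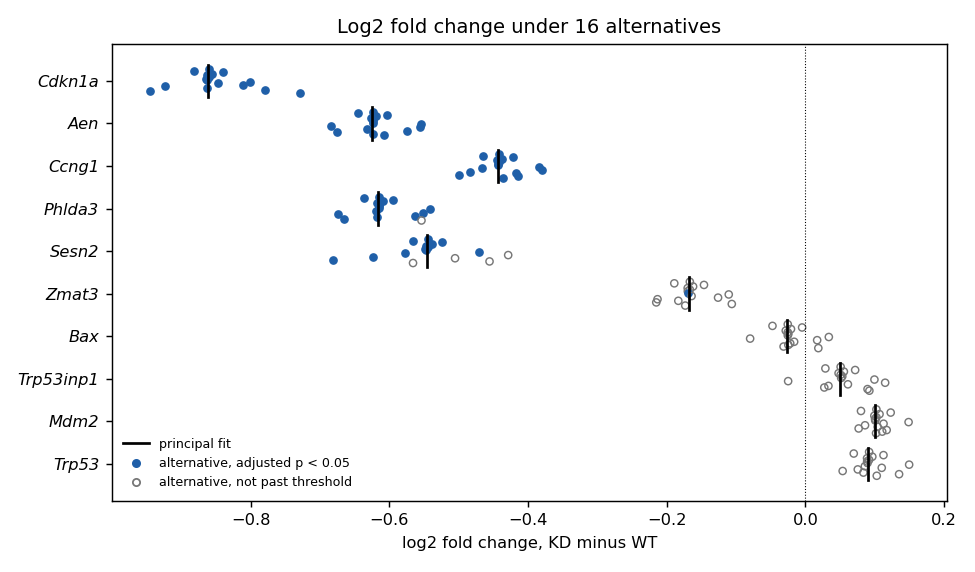
Log2 fold change, KD minus WT (horizontal axis), of the 10 genes in the principal fit (black lines) and under 16 alternatives (points, filled where the adjusted p was under 0.05). Cdkn1a, Aen and Ccng1 are filled throughout, at -0.95 to -0.73, -0.68 to -0.55 and -0.50 to -0.38, whereas Bax and Trp53inp1 scatter around 0.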

How the data were processed

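The 10 genes, the other lists and the tests were chosen with earlier results of these data known. The authors purified mRNA, sequenced it on the DNBSEQ platform and deposited an estimated count and a TPM value per gene and library. The submitters' processing notes name HISAT2 2.2.1, Bowtie2 2.4.5 and RSEM 1.3.1 and the builds GRCm38 and mm10, without their roles. The TPM values were scaled by the authors to 1000000 per library. The 6 FPKM columns and the group averages were not used. Control columns are named Ctrl and were matched to the WT titles by number.

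Estimated counts were rounded and fitted with edgeR 4.0.16 in R 4.3.3 (TMM, filterByExpr with a minimum count of 10, quasi-likelihood F-test, Benjamini-Hochberg over all genes tested, two-sided). SE is the absolute log2 fold change over the square root of F. CPM uses TMM-scaled totals. The script was tested on simulated data. Deviations from group means (log2 CPM) correlated at 0.414, 0.366 and 0.227 between same-numbered libraries and at -0.30 to -0.02 otherwise, so the numbers pair the libraries. The replicates were independent experiments by the methods, and the labels do not name animals. All 10 genes were described, every gene of a further list past the threshold was named where there were at most 6, as in each list (targets by function), and the 5 genes most like Cdkn1a were named by Pearson r. Alternatives were 3 scalings, 2 filters, DESeq2 1.42.0, limma-voom and limma-trend on log2(TPM + 1) (limma 3.58.1), the replicate block and each library left out, plus both libraries numbered 2 left out, added after seeing the data. A marker gene of the neuron lineage list is not reported here and was left out of its sum.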

Additional observations from a re-analysis of the deposited data

How the results depend on the processing

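Cdkn1a, Aen and Ccng1 kept their direction and their call under all 16 alternatives, and Trp53 and Mdm2 kept a positive log2 fold change that did not pass. The cause of the changes below was not tested. The count of the 10 genes lower in KD was 4 to 5 with 1 library left out, 6 with the replicate block and 3 without both libraries numbered 2, where fewer samples entered, and the count higher was 0 throughout. For the other targets, 4 to 10 were lower and 1 to 4 higher with 1 library left out. The fewest lower were without WT replicate 2 (4 genes), and the fewest higher without KD replicate 2 (1 gene). Other targets higher came to 2 without WT replicate 1 or KD replicate 3 and to 3 without WT replicate 2 or KD replicate 1. Without both libraries numbered 2, 1 was lower and 0 were higher. Regulators of p53 came to 3 to 7 higher and 0 to 1 lower with 1 library left out, and the p21-DREAM genes to 1 to 7 higher, against 11 with the block. Without both libraries numbered 2, 0 of either group were higher and 0 regulators were lower. The counts for these 2 groups were added after seeing the data. Bax turned positive on TPM (0.034), without both libraries numbered 2 (0.019) and without WT replicate 2 (range with 1 library left out -0.080 to 0.017). Trp53inp1 ranged from -0.025, without WT replicate 1, to 0.115 with 1 library left out. The block added the call of Zmat3 and changed no other call among the 10. Over all genes, the block gave 2539 higher and 2470 lower against 1646 and 1631. Leaving out WT replicate 2 gave 779 and 797, KD replicate 2 gave 884 and 849, KD replicate 1 gave 1098 and 1077, and both libraries numbered 2 gave 135 and 93. On TPM, 2076 were higher and 1072 lower (65.9% higher against 50.2%), with a median shift of 0.05.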
